A study of Mus musculus with 5 samples.

Results

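The vascular endothelial growth factor (VEGF) and angiopoietin systems are described here across the cell types of the mouse temporomandibular joint (TMJ) disc, at 4 postnatal ages and after a disc injury. The genes were chosen by name: the ligands Vegfa, Vegfb and Vegfc with their receptors Kdr (VEGFR2), Flt1 (VEGFR1) and Nrp1 (neuropilin-1), and the ligands Angpt1 and Angpt2 with their receptor Tek (TIE2) and the related receptor Tie1. They are 10 of the 27998 genes in the count matrices, and all 10 were detected. The choice rested on their names and roles and on no measured value.

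The data are 5 droplet-based single-cell RNA libraries (10x Genomics, 3' chemistry) of whole TMJ discs, all labelled as wild-type and C57BL/6. Untreated discs were taken at 3 d (newborn), 3 w (juvenile), 16 w (adult) and 78 w (aged). The fifth library came from discs injured with a needle at the anterior band (pinched per the labels, punctured per the study's methods) when mice were 5 weeks old and collected 2 weeks after that, at 7 weeks of age. The methods describe the injury model in Myh11-CreER+; Tm fl/- mice, a reporter line for MCs whose transgene is on the Y chromosome, and do not say whether such mice gave this library, which is labelled wild-type. The mice of 3 w, 16 w and 78 w were males, those of 3 d were of both sexes per the study's methods, and the sex behind the injured library is not given in the sources used here. The number of mice behind each library is likewise not given there. No normal library has the injured disc's age, so it is set beside both 3 w and 16 w. Each condition is 1 library, so no difference could be tested against a spread between replicates: no p-value is given, and every interval is a 95% interval for counting error only. Condition, library, dissociation and sequencing run cannot be told apart, nor can injury be told apart from the age of 7 weeks.

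After filtering, 51688 cells were kept, and the median unique molecular identifiers (UMIs, counted transcript molecules) per cell ran from 7721 to 12496 in the normal libraries against 3299 in the injured one. Between 19 and 39 cell barcodes were shared by each pair of libraries, and leaving out the 548 cells that carry them kept every ratio between libraries within its counting interval. Cells were clustered without the 10 genes and the pathway genes named below, so that these genes did not draw the clusters. Clusters were grouped by fixed marker genes into endothelial cells (ECs: 1032, 749, 570, 674 and 359 cells at 3 d, 3 w, 16 w, 78 w and in the injured disc), mural cells (MCs, the smooth muscle cells and pericytes around vessels: 353, 272, 240, 274 and 110), stromal cells (the matrix-producing fibroblast and chondrocyte-like cells of the disc: 11145, 7937, 7694, 8366 and 6883) and macrophages (346, 232, 115, 296 and 499). All 12 stromal markers were detected in the stromal cells of every library, but also in ECs, MCs and macrophages, so detection alone does not mark the class. Their summed level was highest in stromal cells in each library. It was 33305 to 70333 CPM (defined below) there and at most 19379 in the other classes. Since fixed markers also named the classes, this is not an independent check. The stromal class joins 3 clusters, and its makeup differs with age: the cluster led by Cytl1 and Chad held 2218 of 11145 stromal cells at 3 d and 5859 of 8366 at 78 w, and the cluster led by Pi16 and Clec3b held 4377 and 883.

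Levels are given in CPM (counts per 1e6): within each library, all cells of 1 class were pooled, and the pooled UMIs of a gene were scaled to 1e6 UMIs of that pool. A CPM is a share of RNA, and since UMIs are read at transcript 3' ends, levels are compared between classes and libraries for the same gene, not between genes. A ratio is called here when it is at least 2-fold and the higher group holds at least 20 UMIs; the share of all genes that pass the same rule is given beside each count. Endothelial RNA was also counted in other cells: the levels of 12 endothelial marker genes in stromal cells were, at the median, 0.905%, 0.266%, 0.390%, 0.328% and 0.740% of their levels in ECs (3 d, 3 w, 16 w, 78 w and injured), and in MCs 1.83%, 5.71%, 1.51%, 0.607% and 7.21%. Of the 8 endothelial and 8 mural subclusters, 3 that carried genes of another class were also left out as an alternative, given as the level without mixed subclusters. The mixed one of ECs, led by Angptl7 and Dcn, had a median of 12568 UMIs per cell, against 4697 in the largest EC subcluster. The 12 stromal markers summed to 7448 to 12981 CPM in the ECs of the 5 libraries, and to 612 to 1983 without mixed subclusters.

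VEGF ligands and their receptors drive the growth, survival and permeability of blood vessels. Vegfa is the chief ligand: Kdr carries most of its signal in ECs, Flt1 binds it tightly while signalling weakly and so limits what reaches Kdr, and Nrp1 is a co-receptor that also binds class 3 semaphorins. Vegfb binds Flt1 and Nrp1, and Vegfc acts chiefly on Flt4 (VEGFR3) in lymphatic vessels and, once processed, on Kdr. Angpt1, made largely by cells around vessels, activates Tek on ECs and steadies the vessel wall, Angpt2 can oppose it, and Tie1 modulates Tek. The TMJ disc is a fibrocartilage whose central zone is poor in vessels.

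The receptors were highest in the endothelium, and the ligands other than Vegfc outside it. Of the 10 genes, 6 (Vegfc, Kdr, Flt1, Nrp1, Tek and Tie1) had their highest CPM in ECs in all 5 libraries, against 8.17% of the 12676 genes with enough UMIs. Kdr, Flt1, Tek and Tie1 also had over 50% of a library's UMIs in ECs in all 5 libraries, as did 0.915% of genes. Vegfa was highest in stromal cells at 3 d, 16 w and 78 w and in MCs in the other 2 libraries, Vegfb in MCs or macrophages, Angpt2 in MCs in all 5, and Angpt1 in MCs in all but the injured one. Some of these orders were within counting error. The ratio of MCs to ECs for Angpt2 in the injured disc was 1.99 (0.630 to 6.00). ECs held 84.1 to 95.2% of the Kdr UMIs, 83.9 to 93.4% of Flt1, 77.9 to 92.4% of Tek and 78.9 to 94.8% of Tie1. Vegfa (89.1 to 95.3%), Vegfb (81.9 to 89.3%) and Angpt1 (84.1 to 95.1%) had most of their UMIs in stromal cells in each library, which holds for 91.9% of all genes, since stromal cells are the bulk of every library.

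**Figure D1:**
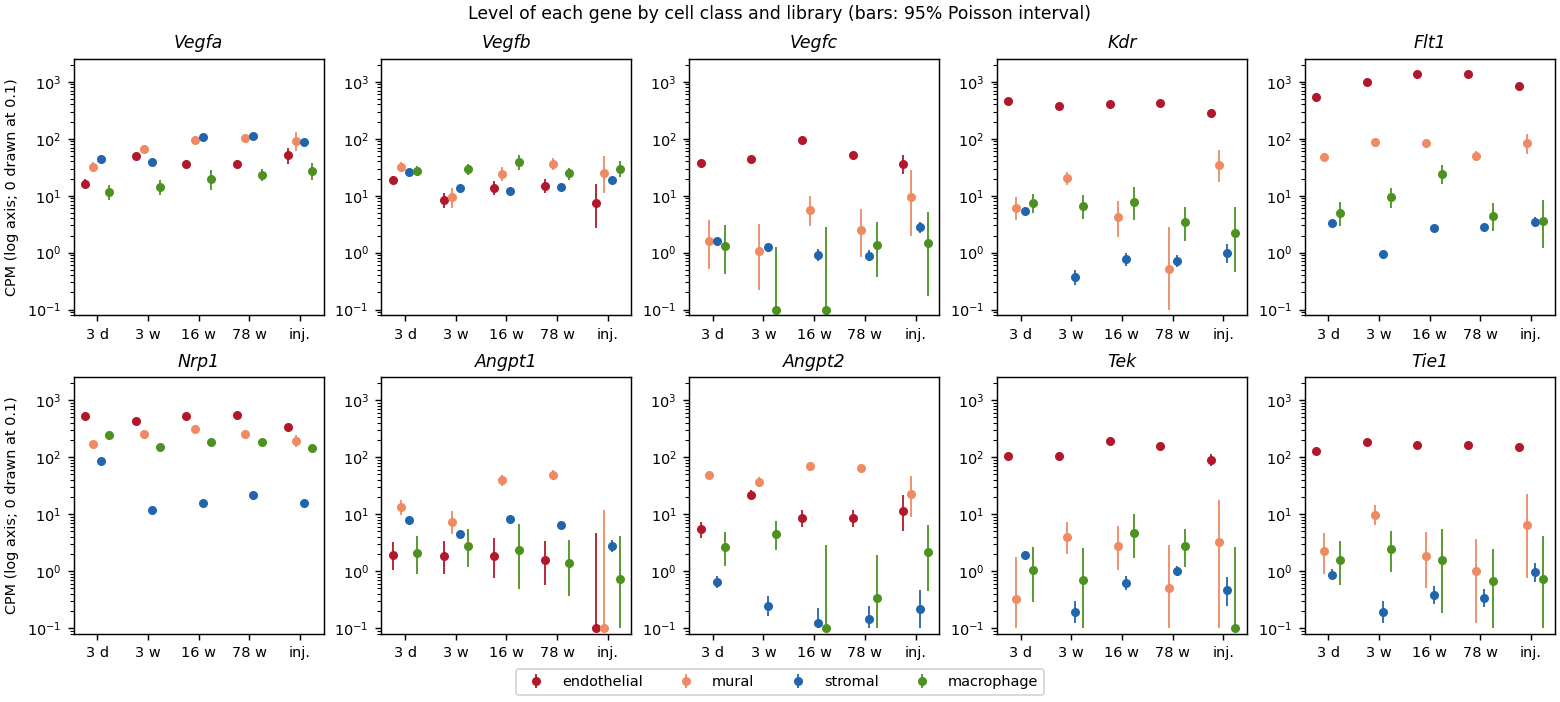
CPM of each of the 10 genes (log axis, 1 panel per gene) in endothelial, mural, stromal and macrophage cells of the 5 libraries, with 95% counting intervals and values of 0 drawn at 0.1. Kdr, Flt1, Tek and Tie1 lie highest in ECs in every library, while Vegfa in stromal and mural cells lies between 86.7 and 112 at 16 w, 78 w and in the injured disc.

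The receptors Kdr, Flt1 and Tek are shown here by the 250 bases before their RefSeq transcription starts (GRCm38.p6, read along the gene's strand), because they bind the VEGF and angiopoietin ligands directly and had most of their UMIs in ECs. Capitals mark GGAA, read on either strand (TTCC on the printed strand), the core of the sites that ETS factors bind, a family that includes regulators of endothelial genes. By its letters no match can overlap another.
Kdr, chr5:75978456-75978705, minus strand: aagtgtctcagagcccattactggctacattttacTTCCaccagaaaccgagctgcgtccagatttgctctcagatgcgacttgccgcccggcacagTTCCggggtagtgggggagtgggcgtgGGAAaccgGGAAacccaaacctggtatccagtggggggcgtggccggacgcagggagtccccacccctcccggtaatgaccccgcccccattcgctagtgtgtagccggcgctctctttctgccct
Flt1, chr5:147726012-147726261, minus strand: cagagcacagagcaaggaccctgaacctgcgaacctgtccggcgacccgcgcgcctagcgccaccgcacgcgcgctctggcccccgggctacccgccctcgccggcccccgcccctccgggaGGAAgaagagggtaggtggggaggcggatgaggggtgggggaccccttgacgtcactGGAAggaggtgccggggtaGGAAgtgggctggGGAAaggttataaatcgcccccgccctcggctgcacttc
Tek, chr4:94739039-94739288, plus strand: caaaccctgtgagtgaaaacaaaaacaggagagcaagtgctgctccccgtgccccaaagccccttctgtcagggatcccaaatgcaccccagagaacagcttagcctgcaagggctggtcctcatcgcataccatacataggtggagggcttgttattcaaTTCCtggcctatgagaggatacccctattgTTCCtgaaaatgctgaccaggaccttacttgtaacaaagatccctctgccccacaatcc

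The Kdr and Flt1 windows each held 4 matches, a number reached or passed by 33.4% of 32851 promoter windows of the same length, and the Tek window held 2, reached by 76.8%. Tie1 had 7 matches, reached by 3.82%, and Nrp1 had 4. Of the ligands, the 2 Vegfa windows held 6, reached by 8.69%, and 2, and those of Vegfb and Vegfc held 1 each. The table held 8 of the 10 genes, without Angpt1 and Angpt2. A match is a description of letters, not a binding site. In the files' annotation (GRCm38) Kdr (ENSMUSG00000062960) spans chr5:75932827-75978458, Flt1 (ENSMUSG00000029648) chr5:147561604-147726011, Tek (ENSMUSG00000006386) chr4:94739289-94874976 and Tie1 (ENSMUSG00000033191) chr4:118471191-118490061. Nrp1 (ENSMUSG00000025810) spans chr8:128358604-128503363, Vegfa (ENSMUSG00000023951) chr17:46016993-46032369, Vegfb (ENSMUSG00000024962) chr19:6982473-6987651, Vegfc (ENSMUSG00000031520) chr8:54077606-54187096, Angpt1 (ENSMUSG00000022309) chr15:42424723-42676977 and Angpt2 (ENSMUSG00000031465) chr8:18690263-18741562.

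Flt1 and Kdr parted with age in ECs. Kdr, the main signalling receptor, stood at 466 CPM (3 d, 450.4 to 482), 374 (3 w, 358 to 391), 402 (16 w, 382 to 423), 423 (78 w, 402 to 444) and 283 (injured, 247 to 322). Its 4 normal levels lay close together, and the 78 w level was 0.907 (0.855 to 0.962) of that at 3 d. That last ratio lay on either side of 1 with the processing, at 1.04 with TMM scaling. These are levels of the whole class. By subcluster, given below, Kdr was higher at 78 w than at 3 d in ECs led by Penk and Esm1 and lower in arterial-like ECs. The makeup of the ECs also differed with age: the venular-like subcluster held 108 of 1032 ECs at 3 d and 229 of 674 at 78 w. The part of this makeup in the EC levels was not tested. Flt1, the receptor that limits free VEGF-A, stood at 551 CPM (3 d, 534 to 568), 1009.9 (3 w, 983 to 1037), 1378 (16 w, 1341 to 1416), 1359.8 (78 w, 1323 to 1397) and 834 (injured, 772 to 899.6). It was 2.47-fold higher (2.37 to 2.57) at 78 w than at 3 d, with most of the difference present by 16 w: 1.83-fold higher (1.76 to 1.91) from 3 d to 3 w, 1.36-fold from 3 w to 16 w and 0.987-fold from 16 w to 78 w. The ratio of Flt1 to Kdr UMIs in ECs was 1.18 (3 d), 2.70 (3 w), 3.43 (16 w), 3.22 (78 w) and 2.95 (injured), so the injured disc lay between 3 w and the older ages in value. The injured interval, 2.53 to 3.44, takes in the values of 3 w, 16 w and 78 w. Because both genes are counted in the same cells, this ratio does not depend on the other RNA of the class.

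The same held per cell at equal depth. Cells of at least 1000 UMIs were thinned to that number, and cells with fewer were left out. Of the ECs kept, 40.7% had a Flt1 UMI at 3 d, 58.3% at 3 w, 68.5% at 16 w, 68.2% at 78 w and 51.3% in the injured disc. Shallow ECs were not spread evenly: an EC subcluster with a median of 785 UMIs held 204 of 1032 ECs at 3 d and 27 of 749 at 3 w. For Kdr these shares were 37.0%, 31.6%, 29.9%, 32.6% and 24.9%. In stromal cells, where free RNA would show, the thinned shares were at most 0.397% for both genes. Without thinning, 71.7% to 94.6% of ECs of the normal libraries and 63.2% of the injured ones had a Flt1 UMI, and median EC depth was 4818 to 5749 UMIs in the former and 1906 in the latter.

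Outside ECs, Flt1 was also counted in MCs, at 47.9 CPM (3 d), 88.3 (3 w), 83.5 (16 w), 49.9 (78 w) and 82.5 (injured), against 11.5, 11.4, 16.5, 27.2 and 10.1 times as much in ECs. Kdr in MCs was at 6.10 CPM (3 d), 20.3 (3 w), 4.20 (16 w), 0.510 (78 w) and 34.9 (injured), and without mixed subclusters these levels were 1.35, 7.75, 0, 0.738 and 19.6. In stromal cells Kdr was at 5.39 CPM (3 d), 0.372 (3 w), 0.772 (16 w), 0.714 (78 w) and 1.00 (injured), which is 1.16%, 0.0993%, 0.192%, 0.169% and 0.354% of its EC level. Only the 3 d share is above the median of the endothelial markers in that library, and in the other libraries stromal Kdr was below it.

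Tek, the angiopoietin receptor, was at 106 CPM (3 d, 98.2 to 113), 103 (3 w, 94.5 to 112), 193 (16 w, 179 to 207), 158 (78 w, 146 to 171) and 88.1 (injured, 68.8 to 111) in ECs. The 3 d and 3 w levels differed by less than counting error (ratio 0.975 (0.873 to 1.09)), 16 w was 1.88-fold higher (1.68 to 2.10) than 3 w, and 78 w was 0.821 (0.736 to 0.916) of 16 w. Its partner Tie1 was at 126 CPM (3 d, 118 to 134), 187 (3 w, 176 to 199), 165 (16 w, 153 to 179), 165 (78 w, 152 to 178) and 149 (injured, 123 to 178), with another order of the ages: it was 1.49-fold higher (1.36 to 1.63) at 3 w than at 3 d and 0.885 (0.799 to 0.979) of that at 16 w. The ratio of Tie1 to Tek UMIs in ECs was therefore 1.19 (3 d), 1.82 (3 w), 0.857 (16 w), 1.04 (78 w) and 1.69 (injured). The injured disc (95% interval 1.25 to 2.30) lay near 3 w and above 16 w and 78 w.

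Nrp1 was the least endothelial of the receptors. In ECs it was at 525 CPM (3 d, 509 to 542), 438 (3 w, 421 to 456), 521 (16 w, 498 to 544), 555 (78 w, 532 to 579) and 335 (injured, 296 to 378), with 78 w at 1.06 (1.00 to 1.11) of 3 d. MCs carried it at 171 CPM (3 d), 258 (3 w), 313 (16 w), 259 (78 w) and 194 (injured), and macrophages at 240.1 CPM (3 d), 152 (3 w), 181 (16 w), 184 (78 w) and 144 (injured). ECs were above MCs in each library, by 3.07, 1.70, 1.66, 2.14 and 1.73 times. In stromal cells it was at 84.1 CPM (3 d), 12.02 (3 w), 15.7 (16 w), 21.7 (78 w) and 15.8 (injured), and at 78 w was 3.87-fold lower (3.68 to 4.06) than at 3 d. Stromal cells held 60.8% of all Nrp1 UMIs at 3 d and 27.6%, 30.2%, 37.0% and 44.5% in the other libraries.

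The stromal Nrp1 was highest in 1 of the 3 stromal clusters. The cluster led by Pi16 and Clec3b, genes of a fibroblast kind known from many tissues, carried 136 CPM (3 d), 103 (3 w), 126 (16 w), 149.8 (78 w) and 59.9 (injured). The cluster led by Cytl1 and Chad carried 20.6 CPM (3 d), 1.30 (3 w), 2.68 (16 w), 2.32 (78 w) and 3.88 (injured), and the one led by Coch and Tnmd carried 46.8 CPM (3 d), 14.5 (3 w), 21.5 (16 w), 31.6 (78 w) and 23.2 (injured). With equal weight for the 3 clusters the stromal ratio of 78 w to 3 d was 0.902 in place of 0.258, so the lower stromal level went with fewer cells of that cluster (4377 of 11145 at 3 d and 883 of 8366 at 78 w). Within the Cytl1 and Chad cluster the 3 d level was still the highest of the 5.

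Vegfa, the main ligand, was higher at 16 w and 78 w than at 3 d in each class. In stromal cells it was at 43.7 CPM (3 d, 42.4 to 44.9), 38.4 (3 w, 37.3 to 39.6), 109 (16 w, 106 to 111), 112 (78 w, 110.3 to 115) and 86.7 (injured, 83.3 to 90.2). The 2 younger libraries lay together and the 3 others well above, with a level 2.83-fold higher (2.73 to 2.93) at 16 w than at 3 w and 1.04-fold from 16 w to 78 w. MCs were at 31.8 CPM (3 d, 25.8 to 38.7), 65.7 (3 w, 56.5 to 76.0), 96.1 (16 w, 83.4 to 110.2), 102 (78 w, 88.8 to 118) and 92.1 (injured, 61.7 to 132). Here the step came earlier, with 3 w 2.07-fold higher (1.61 to 2.67) than 3 d and 78 w 3.22-fold higher (2.52 to 4.14) than 3 d. The ratio of the MC to the stromal level was 0.729 (3 d), 1.71 (3 w), 0.885 (16 w), 0.911 (78 w) and 1.06 (injured), and the intervals of the 2 classes overlapped in all libraries but 3 d and 3 w.

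ECs held less Vegfa than stromal cells in all libraries but 3 w, and macrophages less in all 5. In ECs it was at 16.3 CPM (3 d), 49.4 (3 w), 36.4 (16 w), 36.6 (78 w) and 50.9 (injured), with 78 w 2.25-fold higher (1.75 to 2.89) than 3 d. Without mixed subclusters, one of them led by stromal genes, the EC levels were 13.2, 40.5, 20.2, 23.6 and 43.2 CPM, a ratio of 1.79 for 78 w to 3 d. Macrophages were at 11.4 CPM (3 d), 14.1 (3 w), 19.3 (16 w), 23.5 (78 w) and 27.0 (injured), from 44, 41, 25, 69 and 37 UMIs, with 78 w 2.06-fold higher (1.39 to 3.08) than 3 d. That ratio was 1.14 when every cell had equal weight. In the injured ECs Vegfa was 1.40-fold higher (0.961 to 1.99) than at 16 w, and 2.14-fold higher without mixed subclusters. Among stromal cells of at least 1000 UMIs, thinned to that number, the shares with a Vegfa UMI were 4.67%, 3.66%, 10.8%, 10.8% and 7.99%, in the order of the CPM. Unthinned and over all stromal cells they were 28.0%, 34.4%, 54.5%, 58.7% and 25.5%. Unlike Nrp1, Vegfa was spread over the 3 stromal clusters, which at 78 w carried 112 (Cytl1 and Chad), 116 (Coch and Tnmd) and 107 CPM (Pi16 and Clec3b).

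**Figure D2:**
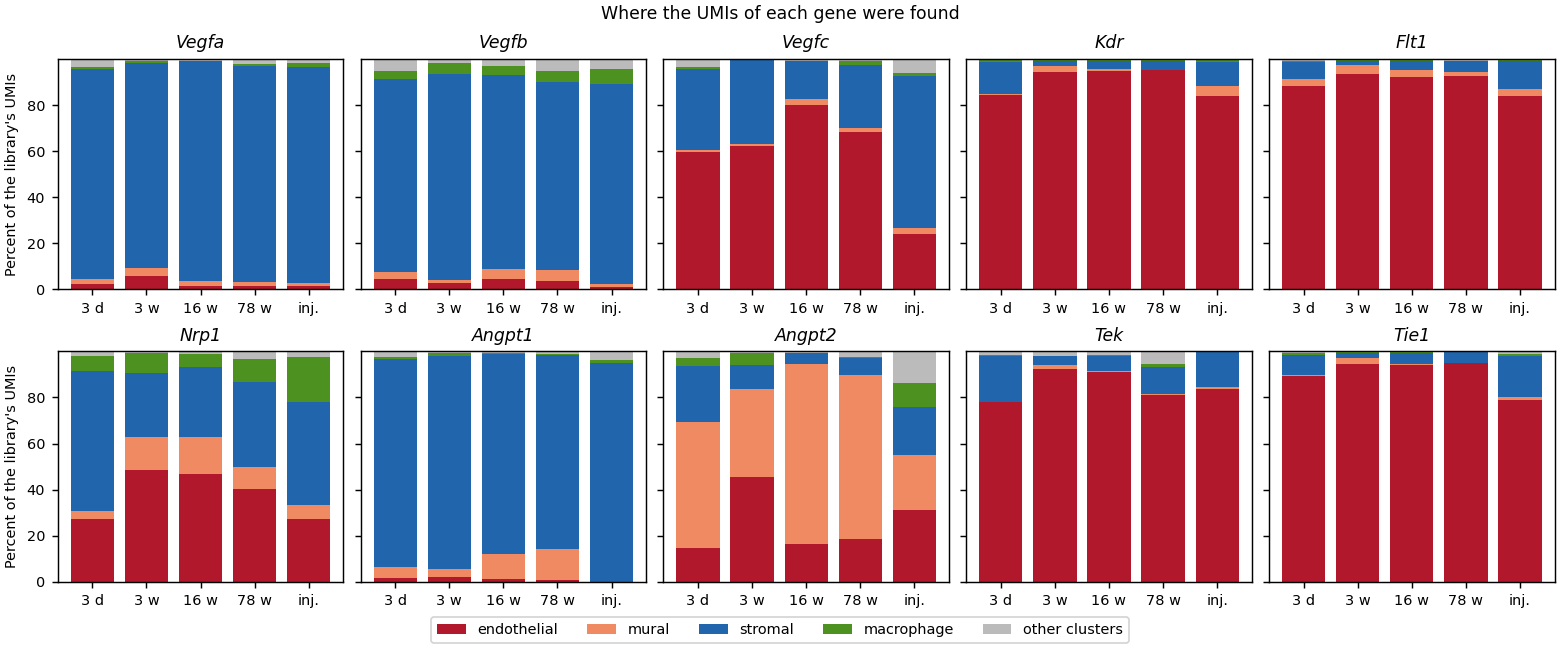
Share of each gene's UMIs (percent of a library's total, stacked bars) held by endothelial, mural, stromal, macrophage and other cells, 1 bar per library. Vegfa, Vegfb and Angpt1 are mostly stromal and Kdr, Flt1, Tek and Tie1 mostly endothelial in all 5, while the bars of Nrp1, Vegfc and Angpt2 differ between libraries.

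Vegfb, a ligand of Flt1, went the other way in stromal cells, at 25.6 CPM (3 d, 24.7 to 26.6), 13.6 (3 w, 12.9 to 14.3), 12.2 (16 w, 11.5 to 13.04), 14.02 (78 w, 13.3 to 14.8) and 19.2 (injured, 17.6 to 20.9). The 3 d library was the highest, and 78 w was 1.83-fold lower (1.71 to 1.96). This difference depends on the makeup of the class: with equal weight for the 3 stromal clusters the ratio of 78 w to 3 d was 0.819 in place of 0.547. Its macrophage levels of 27.3 CPM (3 d), 29.0 (3 w), 38.5 (16 w), 24.5 (78 w) and 29.9 (injured) had overlapping intervals in all 5 libraries. In ECs it was at 18.7 CPM (3 d), 8.45 (3 w), 13.6 (16 w), 15.0 (78 w) and 7.45 (injured), and in MCs at 32.4 CPM (3 d), 9.44 (3 w), 24.3 (16 w), 36.2 (78 w) and 25.4 (injured), lowest at 3 w in both among the normal libraries.

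Vegfc was the endothelial ligand, at 37.9 CPM (3 d, 33.6 to 42.6), 43.7 (3 w, 38.3 to 49.6), 93.8 (16 w, 84.3 to 104), 51.3 (78 w, 44.5 to 59.0) and 36.0 (injured, 24.1 to 51.7) in ECs. The adult disc stood out, 2.15-fold higher (1.82 to 2.54) than 3 w and 1.83-fold lower (1.53 to 2.18) at 78 w than at 16 w. Stromal cells held it at 1.57 CPM (3 d, 1.34 to 1.83), 1.24 (3 w, 1.04 to 1.46), 0.909 (16 w, 0.712 to 1.14), 0.890 (78 w, 0.707 to 1.11) and 2.83 (injured, 2.24 to 3.52), or 163, 140, 73, 81 and 79 UMIs. Because stromal cells are many, they held 34.8%, 36.6%, 16.5%, 27.7% and 65.8% of all Vegfc UMIs, and the injured disc was the 1 library in which ECs (24.2%) held fewer than they did. The Pi16 and Clec3b cluster carried the most of the 3, at 2.64 CPM (3 d), 9.39 (3 w), 5.45 (16 w), 4.65 (78 w) and 14.1 (injured), against 0.181 to 0.545 CPM in the Cytl1 and Chad cluster.

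Of the 4 classes, MCs had the highest level of both angiopoietins in the normal discs. For Angpt1 at 3 w the ratio of MCs to stromal cells, 1.60 (0.967 to 2.49), has an interval that includes 1. Angpt1, the activating ligand, was at 13.2 CPM (3 d, 9.45 to 17.9), 7.26 (3 w, 4.44 to 11.2), 39.2 (16 w, 31.3 to 48.5), 48.4 (78 w, 39.2 to 59.2) and 0 (injured, 0 to 11.7) in MCs, from 41, 20, 84, 95 and 0 UMIs. The adult and aged levels were well apart from the younger ones, with 16 w 5.39-fold higher (3.28 to 9.28) than 3 w and 78 w 3.68-fold higher (2.52 to 5.44) than 3 d. The latter ratio was 1.77 with equal weight for every cell. In stromal cells Angpt1 was at 7.83 CPM (3 d, 7.30 to 8.39), 4.55 (3 w, 4.16 to 4.96), 8.11 (16 w, 7.50 to 8.76), 6.50 (78 w, 5.99 to 7.05) and 2.76 (injured, 2.18 to 3.45), so the ratio of the MC to the stromal level went from 1.68 at 3 d and 1.60 at 3 w to 4.83 at 16 w and 7.44 at 78 w. The stromal level depends on the makeup of the class: with equal weight for the 3 stromal clusters its ratio of 78 w to 3 d was 1.86 in place of 0.831. Of the stromal clusters, that led by Pi16 and Clec3b carried 10.4 CPM (3 d), 17.5 (3 w), 43.8 (16 w), 23.4 (78 w) and 10.8 (injured), above the other 2 clusters in each library. At 3 w, 16 w and in the injured disc this was also above the level of MCs in value.

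Angpt2, which can oppose Angpt1, was at 48.8 CPM (3 d, 41.4 to 57.2), 36.3 (3 w, 29.6 to 44.2), 70.9 (16 w, 60.1 to 83.1), 64.2 (78 w, 53.5 to 76.4) and 22.2 (injured, 8.93 to 45.8) in MCs. In ECs it was at 5.43 CPM (3 d, 3.88 to 7.40), 22.0 (3 w, 18.3 to 26.4), 8.50 (16 w, 5.82 to 12.004), 8.51 (78 w, 5.86 to 11.96) and 11.2 (injured, 5.11 to 21.2), highest at 3 w, which was 4.06-fold higher (2.82 to 5.96) than 3 d, while 16 w was 2.59-fold lower (1.74 to 3.96) than 3 w. ECs accordingly held 45.6% of all Angpt2 UMIs at 3 w, against 14.4%, 16.4% and 18.6% at 3 d, 16 w and 78 w. The ratio of Angpt2 to Angpt1 UMIs in MCs was 3.71 (3 d), 5.00 (3 w), 1.81 (16 w) and 1.33 (78 w). The injured MCs held 7 Angpt2 UMIs and 0 Angpt1 UMIs, too few for a ratio.

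Over the whole span from 3 d to 78 w, 6 pairs of gene and class were called higher and 5 lower. In ECs, of 9 genes with enough UMIs, 2 were called higher (Vegfa and Flt1) and 0 lower, with 13.1% and 17.9% of all tested genes called. The median of the 9 log2 ratios was 0.44, against -0.15 over all genes. In MCs, 2 of 6 were higher (Vegfa and Angpt1) and 0 lower, against 15.1% and 20.8% of all genes, with medians of 0.50 and -0.22. Stromal cells had 1 of 10 higher (Vegfa) and 4 lower (Kdr, Nrp1, Angpt2 and Tie1), with 14.5% and 24.6% of all genes and medians of -0.91 and -0.22. In macrophages 1 of 4 was higher (Vegfa) and 1 lower (Kdr, from 29 and 10 UMIs), with 10.4% and 17.6% of all genes. That Kdr ratio was 0.821 with the highest doublet scores removed and 0.532 with TMM scaling, in place of 0.453. So many genes differed between the youngest and oldest libraries that these counts alone do not set the 10 genes apart.

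The steps were uneven. From 3 d to 3 w, ECs had 2 of 9 genes called higher (Vegfa and Angpt2) and 1 lower (Vegfb), with 16.2% and 25.4% of all genes. MCs had 3 of 8 higher (Vegfa, Kdr and Tie1) and 1 lower (Vegfb), the endothelial markers in MCs being at 1.83% and 5.71% of their EC level, with 17.9% and 23.7%. Stromal cells had 0 of 10 higher and 6 lower (Kdr, Flt1, Nrp1, Angpt2, Tek and Tie1), with 16.6% and 22.6%, and macrophages 0 of 5 in either direction, with 14.3% and 14.1%. Of the 6, Nrp1 was lower at 3 w than at 3 d within each stromal cluster by the levels given above. The part of the makeup of the class in this step was not tested. Endothelial markers in stromal cells were at 0.905% of their EC level at 3 d and 0.266% at 3 w.

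From 3 w to 16 w, ECs had 1 of 9 higher (Vegfc) and 1 lower (Angpt2), with 9.15% and 5.9% of all genes. MCs had 2 of 8 higher (Vegfb and Angpt1) and 2 lower (Kdr and Tie1), with 7.51% and 8.42%. The endothelial markers in MCs were at 5.71% of their EC level at 3 w and 1.51% at 16 w. Stromal cells had 4 of 10 higher (Vegfa, Kdr, Flt1 and Tek) and 0 lower, with 6.99% and 7.81%, of which Vegfa rests on 8723 UMIs at 16 w and the others on at most 218. Stromal Kdr, Flt1 and Tek were at 0.192%, 0.197% and 0.323% of their EC levels at 16 w. At both ages they were below the median of the endothelial markers in stromal cells, which was 0.266% at 3 w and 0.390% at 16 w. In macrophages 1 of 4 was higher (Flt1, from 27 and 31 UMIs) and 0 lower, with 4.66% and 8.32%. A limit of the macrophage Flt1 level at 16 w is given in the next paragraph.

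Little differed between the adult and aged discs. From 16 w to 78 w, 0 of the 10 genes were called in ECs, MCs or stromal cells, where 1.86% of all genes were called higher and 1.55% lower in ECs, 1.78% and 1.51% in MCs and 3.18% and 2.82% in stromal cells. In ECs the widest ratios among genes with enough UMIs were Vegfc at 1.83-fold lower (1.53 to 2.18) and Tek at 1.22-fold lower (1.09 to 1.36), both below 2-fold. Flt1 in macrophages, 23.9 CPM at 16 w and 4.43 at 78 w from 31 and 13 UMIs, was the 1 exception across the classes, with 3.23% and 3.66% of all genes called in macrophages. With the highest doublet scores removed, the ratio of the injured disc to 16 w for this gene turned from 0.153 to 1.76. Ptprb, a gene with most of its UMIs in ECs, was at 18.5 CPM in macrophages at 16 w and 1.70 at 78 w, from 24 and 5 UMIs. The part of doublets in the 16 w macrophage levels was not tested.

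Early genes differed alongside. The summed level of 10 early genes that cell dissociation can induce (Fos, Jun, Hspa1a and others) in ECs was 3094 CPM (3 d), 12280.1 (3 w), 14058 (16 w), 15448 (78 w) and 9669 (injured). In MCs it was 4945 CPM (3 d), 10822 (3 w), 20785 (16 w), 19951 (78 w) and 9729.6 (injured), and in stromal cells 5122 CPM (3 d), 8725 (3 w), 15388 (16 w), 9891 (78 w) and 7394 (injured). All 10 were called higher at 78 w than at 3 d in ECs, 9 in MCs and 5 in stromal cells, beside 13.1%, 15.1% and 14.5% of all genes, in the contrast in which Flt1 and Vegfa were higher. Their part in these results was not tested. Markers of erythroid cells summed to 1960.4 CPM in the ECs and 2723 in the stromal cells of 3 d, and to at most 41.0 and 459.9 elsewhere.

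**Figure D3:**
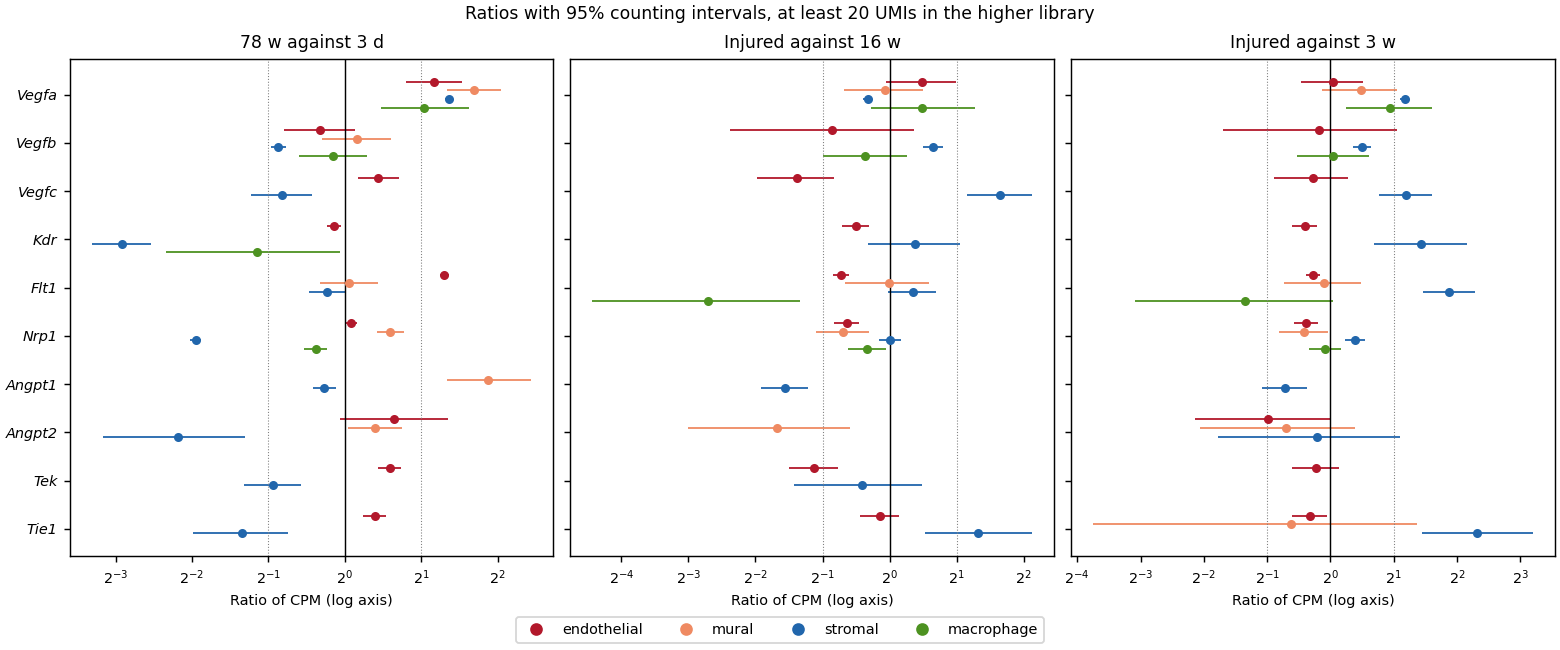
Ratios of CPM (log axis) for 78 w over 3 d, injured over 16 w and injured over 3 w, for each gene and class with at least 20 UMIs in the higher library, with 95% counting intervals and dotted lines at 0.5 and 2. For 78 w over 3 d Vegfa lies above 2 in all 4 classes and Flt1 in ECs, and in the injured disc no EC point lies above 2.

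In the injured disc the EC receptors were below their 3 w and 16 w levels in value. So was the summed level of the 12 endothelial markers in ECs, at 7401 CPM in the injured disc against 9882 at 3 w and 10633 at 16 w. Against 16 w, Kdr was 1.42-fold lower (1.24 to 1.64), Flt1 1.65-fold lower (1.52 to 1.79), Nrp1 1.55-fold lower (1.37 to 1.77) and Tek 2.19-fold lower (1.71 to 2.83) in the injured disc. Against 3 w the same genes were 1.32-fold lower (1.15 to 1.52), 1.21-fold lower (1.12 to 1.31), 1.31-fold lower (1.15 to 1.49) and 1.17-fold lower (0.911 to 1.52). Tie1 was at 0.901 (0.735 to 1.10) of 16 w and 0.797 (0.654 to 0.964) of 3 w. With TMM scaling its ratio to 16 w lay on the other side of 1, at 1.09. Lower ratios were common in these shallow cells: the median log2 ratio of injured ECs to 16 w was -0.68 for 8 of the genes and -0.49 for all genes. Against 16 w, 0 of the 8 were called higher and 2 lower (Vegfc and Tek), with 3.28% and 24.6% of all genes. With TMM scaling the Tek ratio was 0.551, which is not called. Against 3 w 0 of 9 were called in either direction, with 3.88% and 20.4% of all genes.

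In stromal cells of the injured disc Vegfa (86.7 CPM) lay between 3 w and 16 w, 2.26-fold higher (2.15 to 2.37) than the former and 1.25-fold lower (1.20 to 1.31) than the latter. Stromal Vegfb was above both by less than 2-fold, 1.57-fold higher than 16 w and 1.41-fold higher than 3 w. Vegfc was the stromal ligand called higher than both, 3.11-fold higher (2.24 to 4.34) than 16 w and 2.28-fold higher (1.71 to 3.03) than 3 w, on 79 UMIs. With equal weight for the 3 stromal clusters the ratio to 3 w was 1.58. Its stromal level was 7.86% of its EC level there, against 0.740% at the median of the endothelial markers. Tie1 was also called higher in stromal cells than at both ages (2.51-fold higher (1.44 to 4.34) and 4.96-fold higher (2.72 to 9.15)), but its 27 UMIs put it at 0.649% of its EC level, below that median. The other way, stromal Angpt1 was 2.94-fold lower (2.32 to 3.78) than 16 w and 1.65-fold lower (1.30 to 2.13) than 3 w.

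Against 16 w the stromal cells of the injured disc had 2 of 9 genes called higher (Vegfc and Tie1) and 1 lower (Angpt1), with 8.07% and 15.8% of all genes. Against 3 w they had 5 of 9 higher (Vegfa, Vegfc, Kdr, Flt1 and Tie1) and 0 lower, with 7.27% and 18.2%. With equal weight for the 3 stromal clusters the ratios of Vegfa (1.90) and Kdr (1.08) to 3 w were also below 2-fold. Kdr and Flt1 were there at 0.354% and 0.412% of their EC levels. Requiring both ages left Vegfc and Tie1 higher and 0 lower in stromal cells, beside 4.69% and 8.76% of all genes, and 0 of the testable genes in ECs, beside 1.56% and 13.8%. In MCs 0 of 5 passed for both ages, beside 2.11% and 17.6%, and in macrophages Flt1 alone of 4 was lower, from 5 UMIs, beside 4.48% and 8.78%. In macrophages Flt1 was the 1 gene of 4 called lower in either comparison, with 8.42% of all genes higher and 17.2% lower against 16 w and 5.99% and 18.3% against 3 w. With the cells of highest doublet scores removed, that Flt1 ratio to 16 w turned to 1.76.

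The MCs of the injured disc are 110 cells, and the angiopoietins were low in them. Angpt1 had 0 UMIs, against 84 at 16 w, and with 3 UMIs as the floor for a count of 0 it was 4.11-fold lower than at 16 w. That floor is a convention, and the upper limit of the interval of this level, given above, lies higher. With equal weight for every cell the ratio was 0.334 in place of 0.243. Set against the 20 UMIs of 3 w, the same floor lies above the normal level, so no difference could be read. Angpt2 was 3.19-fold lower (1.51 to 8.07) than 16 w and 1.63-fold lower (0.765 to 4.17) than 3 w, on 7 UMIs. Of 5 genes tested in MCs against 16 w, 0 were called higher and these 2 lower, with 3.95% and 25.2% of all genes, and against 3 w 0 of 6 were called, with 3.77% and 25.6%. The injured MCs held 315018 UMIs in all against 2143553 at 16 w, and the injured ECs 805693 against 3763424. With 20 UMIs asked of the higher group, a rise needed a higher CPM to be called than a fall, for all genes alike. Vegfa in MCs (92.1 (61.7 to 132) CPM) differed from 16 w by less than counting error, at a ratio of 0.958 (0.626 to 1.42).

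Within the endothelium, the levels of Vegfc, Vegfa and the VEGF receptors differed between subclusters. The EC subclusters were named from fixed markers as venular-like (754 cells over all libraries), arterial-like (304), capillary-like (220, with hemoglobin genes also among its leading genes) and lymphatic-like (43). A further subcluster of 1083 cells is called by 2 of its leading genes, Penk and Esm1, which stand beside the hemoglobin genes Hba-a1 and Hba-a2. Of these, Vegfc was highest in arterial-like ECs in each library, at 215 CPM (3 d), 164 (3 w), 285 (16 w), 184 (78 w) and 103 (injured). Venular-like ECs had 65.3 (3 d), 48.6 (3 w), 110.1 (16 w), 49.4 (78 w) and 35.0 (injured), which gives ratios of 3.29, 3.38, 2.59, 3.72 and 2.95, above 1 by their intervals in the 4 normal libraries, while the injured one, from 12 and 4 UMIs, includes 1. Endothelial Vegfa followed it, at 43.0 CPM (3 d), 167 (3 w), 107 (16 w), 58.1 (78 w) and 138 (injured) in arterial-like ECs, and 2.06, 7.30, 6.86, 3.13 and 7.86 times the venular-like level. The injured ratio of Vegfa rests on fewer venular-like UMIs than the 4 of Vegfc.

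Kdr was higher in the Penk and Esm1 subcluster than in arterial-like ECs in each library. Against venular-like ECs, the order for Flt1 and Nrp1 differed between libraries. Kdr in the Penk and Esm1 subcluster was at 594 CPM (3 d), 636 (3 w), 781 (16 w), 900.00 (78 w) and 449.5 (injured), and in arterial-like ECs at 387 CPM (3 d), 181 (3 w), 186 (16 w), 252 (78 w) and 138 (injured). Flt1 in the Penk and Esm1 subcluster was at 677 CPM (3 d), 1523 (3 w), 2412 (16 w), 2520.5 (78 w) and 1149 (injured), and in venular-like ECs at 753 CPM (3 d), 943 (3 w), 1242 (16 w), 1249 (78 w) and 1209 (injured). The Flt1 ratio of these 2 subclusters was 0.899 at 3 d and 1.94 at 16 w, and for Kdr it was 1.11 and 2.48. For Nrp1 the gap at 78 w was wider: its level in the Penk and Esm1 subcluster was 0.893 times that of venular-like ECs at 3 d, then 2.43, 2.75 and 4.06 times at 3 w, 16 w and 78 w, and 1.71 times in the injured disc. The levels behind the first and the aged ratio were 615 and 1278 CPM in the former and 689 and 315 in the latter.

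Tek and Tie1 differed between arterial-like and venular-like ECs beyond counting error in 1 library each. Tek was at 183 CPM (3 d), 122 (3 w), 229 (16 w), 206 (78 w) and 149 (injured) in venular-like ECs. Arterial-like ECs were at 0.870, 1.71, 0.936, 0.766 and 0.982 times that, with intervals that include 1 in all libraries but 3 w. Tie1 ratios of arterial-like to venular-like ECs were 1.60, 0.978, 1.05, 1.01 and 0.680, with intervals that include 1 in all libraries but 3 d. The lymphatic-like ECs, 41 of them in the normal libraries, held Kdr at 375 CPM at 3 d, 373 at 3 w and 639 at 78 w, and 0 Vegfc UMIs. Flt4, the lymphatic VEGF-C receptor, was at 375, 893 and 1069 CPM in them at these ages.

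**Figure D4:**
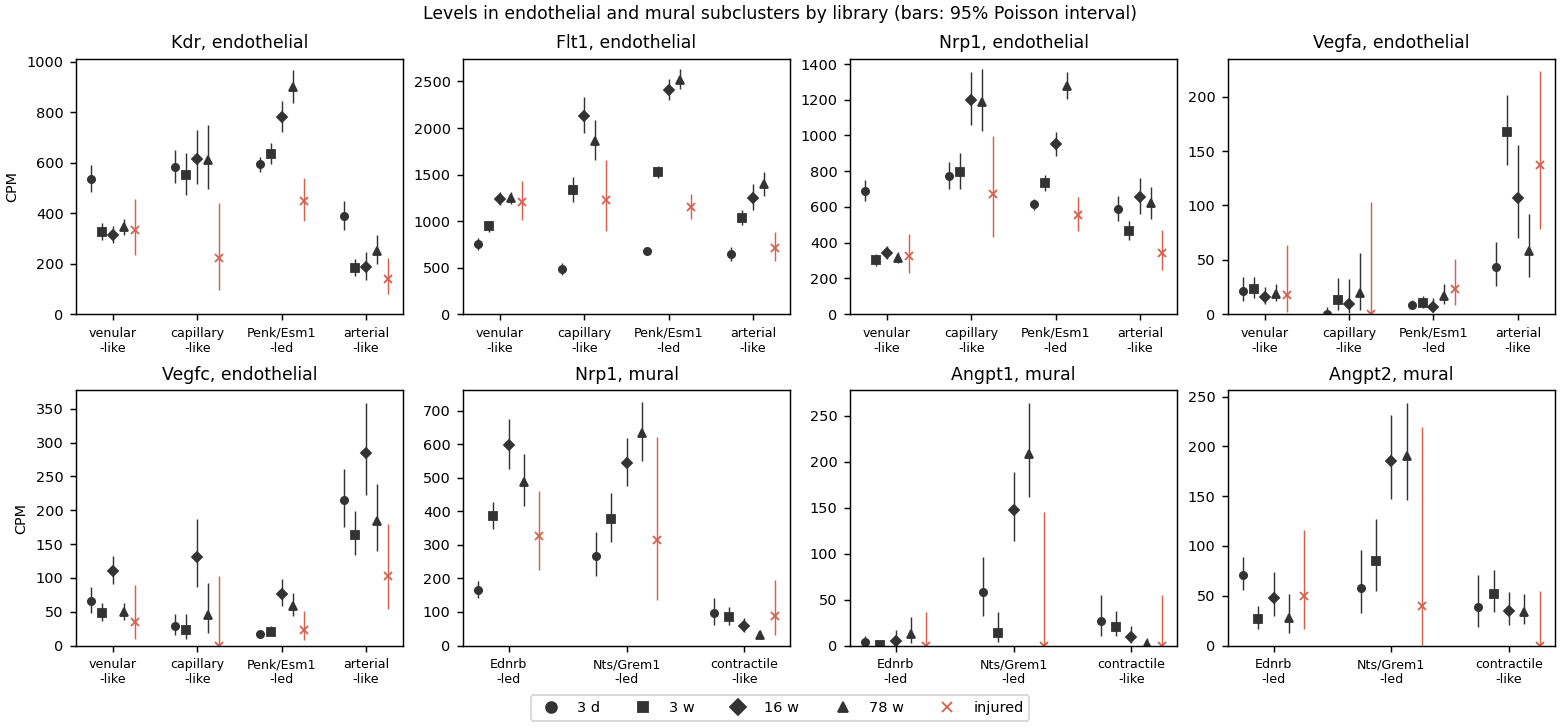
CPM with 95% counting intervals of Kdr, Flt1, Nrp1, Vegfa and Vegfc in 4 endothelial subclusters, and of Nrp1, Angpt1 and Angpt2 in 3 mural subclusters, by library. Of the 4, Vegfc lies highest in arterial-like ECs in each library, Kdr and Nrp1 highest in the subcluster led by Penk and Esm1 or in capillary-like ECs at 3 w and later, mural Nrp1 lowest in contractile-like MCs, and Angpt1 at 16 w and 78 w highest in the MCs led by Nts and Grem1.

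MCs split likewise. Contractile smooth muscle-like MCs (327 cells), which hold the genes of the vessel's muscle coat, carried Nrp1 at 95.7 CPM (3 d), 84.8 (3 w), 58.5 (16 w), 30.8 (78 w) and 89.3 (injured). A subcluster of 453 cells led by Ednrb, the endothelin receptor B, carried it at 167 CPM (3 d), 386 (3 w), 597 (16 w), 488 (78 w) and 328 (injured), and one of 167 cells led by Nts and Grem1 at 267 CPM (3 d), 376 (3 w), 543 (16 w), 632 (78 w) and 315 (injured). In both, Nrp1 was above the contractile level by the interval of the ratio in each library, by 15.8 and 20.5 times at 78 w.

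Flt1 was likewise lowest in contractile MCs. It was at 124 CPM (3 d), 138 (3 w), 197 (16 w), 172 (78 w) and 118 (injured) in the MCs led by Nts and Grem1 and at 65.8 CPM (3 d), 59.5 (3 w), 64.8 (16 w), 67.1 (78 w) and 59.6 (injured) in those led by Ednrb, while contractile MCs were at 30.6, 4.13, 1.83, 1.54 and 0. The contractile MCs and those led by Nts and Grem1 held 0 Kdr and 0 Tek UMIs. The 2 angiopoietins were highest in the MCs led by Nts and Grem1 at 16 w and 78 w. Angpt1, the Tek agonist, was at 58.1 CPM (3 d), 14.2 (3 w), 148 (16 w), 209 (78 w) and 0 (injured) in them, from 15, 4, 63, 68 and 0 UMIs, and at most 12.2 CPM in the MCs led by Ednrb. Contractile MCs held it at 26.8 CPM (3 d), 20.7 (3 w), 9.14 (16 w), 1.54 (78 w) and 0 (injured). The subcluster led by Nts and Grem1 was above the contractile one by 16.2-fold at 16 w, and at 3 d and 3 w the ratios of 2.17 and 0.687 have intervals that include 1. Angpt2, the context-dependent Tek ligand, was at 58.1 CPM (3 d), 85.2 (3 w), 186 (16 w), 190.2 (78 w) and 39.3 (injured) in it, 5.34 and 5.61 times the contractile level at 16 w and 78 w. Its 3 d ratio of 1.52 and 3 w ratio of 1.65 have intervals that include 1. Borders between subclusters are a choice of the clustering, and at a higher resolution ECs split into 12 and MCs into 11.

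Of the other ligands and receptors of the family, Pgf differed widely between the libraries. Pgf, the placental growth factor, which binds Flt1 and not Kdr, was at 9.24 CPM (3 d, 7.17 to 11.7), 141 (3 w, 131 to 152), 5.85 (16 w, 3.66 to 8.85), 17.8 (78 w, 13.8 to 22.5) and 182 (injured, 154 to 214) in ECs, from 68, 769, 22, 69 and 147 UMIs. It was high in the 3 w and injured discs and low in the 3 others: 15.3-fold higher (11.9 to 19.9) at 3 w than at 3 d, 24.2-fold lower (15.8 to 38.8) at 16 w than at 3 w and 31.2-fold higher (19.9 to 51.3) in the injured disc than at 16 w. Against 3 w the injured level was 1.29 (1.08 to 1.54), so it was not above both ages by 2-fold. Arterial-like ECs carried it at 434 CPM at 3 w and 576 in the injured disc, and at 2.15, 35.7 and 51.6 at 3 d, 16 w and 78 w. MCs carried Pgf at 34.7 CPM (3 d), 69.7 (3 w), 29.9 (16 w), 42.8 (78 w) and 22.2 (injured), above ECs at 3 d, 16 w and 78 w. Without mixed subclusters these MC levels were 39.5, 30.4, 41.8, 53.9 and 9.82, with 3 w the lowest of the normal libraries. The ratio of Vegfa to Pgf UMIs in the whole library, both of which bind Flt1, was 6.60 (3 d), 4.52 (3 w), 30.9 (16 w), 34.5 (78 w) and 11.9 (injured).

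Of the 7 genes in that list, ECs had 1 of 4 higher and 0 lower at 78 w than at 3 d (13.1% and 17.9% of all genes): Ptprb, the phosphatase that restrains Tek, at 301 CPM (3 d), 538 (3 w), 813 (16 w), 638 (78 w) and 449 (injured). Against 16 w the injured ECs had 1 of 4 higher and 0 lower (Pgf), beside 3.28% and 24.6% of all genes, and against 3 w 0 of 4 higher and 0 lower, beside 3.88% and 20.4%. Nrp2, the neuropilin of veins and lymphatics, was at 143 CPM (3 d), 209 (3 w), 217 (16 w), 284 (78 w) and 144 (injured) in ECs. Macrophages carried it at 165 CPM (3 d), 289 (3 w), 214 (16 w), 224 (78 w) and 86.1 (injured), above ECs at 3 d and 3 w. Stromal cells had 0 of 6 higher and 3 lower at 78 w than at 3 d, namely Pgf, Angpt4 and Figf (Vegfd), beside 14.5% and 24.6% of all genes.

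The 12 endothelial response genes, known to respond to VEGF or angiopoietin signals in ECs, went both ways. At 78 w against 3 d ECs had 5 of 11 higher and 2 lower, beside 13.1% and 17.9% of all genes, with a median log2 ratio of 0.76 beside -0.15 for all genes. Apln, a peptide ligand of sprouting tip cells, was lower, at 134 CPM (3 d), 2.57 (3 w), 4.78 (16 w), 4.39 (78 w) and 36.0 (injured). Its receptor Aplnr was lower too, at 277 CPM (3 d), 21.3 (3 w), 64.0 (16 w), 55.7 (78 w) and 29.8 (injured). Both were far higher at 3 d than in any other library. Of those called higher, Nr4a1 was 5.81-fold higher (5.22 to 6.48) and Rcan1, a calcineurin inhibitor, 4.37-fold higher (3.97 to 4.81), and Nr4a1 is known as an early gene as well. Dll4, the Notch ligand of tip and arterial cells, was highest at 3 w, at 42.4 CPM (3 d), 185 (3 w), 65.1 (16 w), 72.0 (78 w) and 59.6 (injured).

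In the injured disc the same list had 2 of 11 higher and 2 lower than 16 w, beside 3.28% and 24.6% of all genes, and 2 of 11 higher and 2 lower than 3 w, beside 3.88% and 20.4%. Apln alone was higher than at both ages, beside 1.56% of all genes (7.53-fold higher (4.04 to 14.4) and 13.996-fold higher (7.16 to 28.7), on 29 UMIs). Esm1, a VEGF-induced proteoglycan, was at 77.7 CPM (3 d), 201 (3 w), 87.7 (16 w), 69.9 (78 w) and 219.7 (injured), so the injured disc was 2.51-fold higher (2.08 to 3.02) than 16 w and within counting error of 3 w (1.09 (0.927 to 1.28)). Pdgfb, which recruits MCs, was at 144 CPM (3 d), 77.0 (3 w), 103 (16 w), 117 (78 w) and 182 (injured), 2.37-fold higher (1.95 to 2.87) than 3 w and 1.77-fold higher (1.45 to 2.15) than 16 w. Apln, Esm1, Pdgfb and, from the list before, Pgf were thus each higher in the injured disc than at 3 w and at 16 w in value. The Esm1 interval against 3 w included 1. Dll4 was below both ages in value, and Aplnr below 16 w and above 3 w. The median log2 ratio of the response list was -0.16 against 16 w and -0.27 against 3 w, beside -0.49 and -0.42 for all genes.

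**Figure D5:**
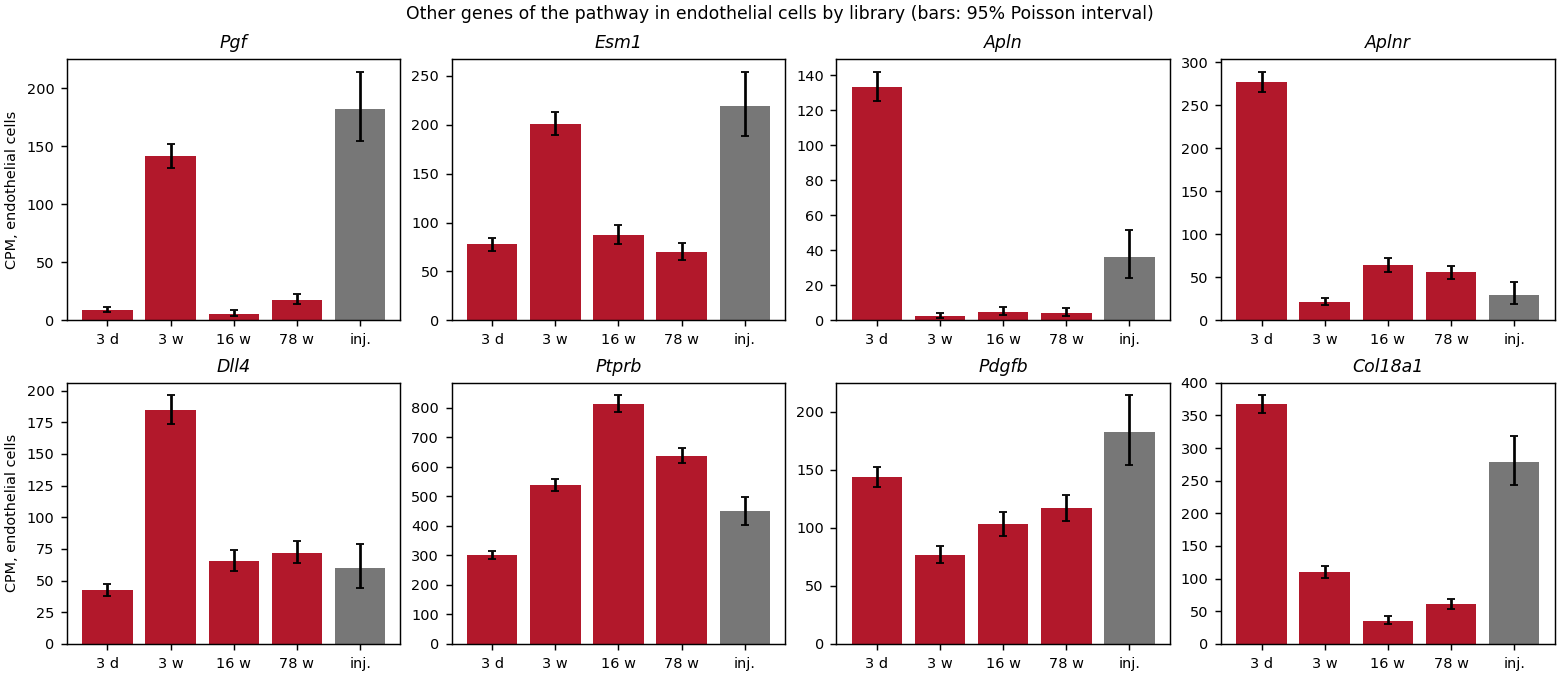
CPM in ECs of Pgf, Esm1, Apln, Aplnr, Dll4, Ptprb, Pdgfb and Col18a1 by library (bars from 0) with 95% counting intervals. Pgf and Esm1 are high at 3 w and in the injured disc, Apln and Aplnr at 3 d, and Col18a1 at 3 d and in the injured disc.

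Of 9 angiogenesis inhibitors, ECs had 2 of 9 higher and 4 lower at 78 w than at 3 d and stromal cells 2 of 9 higher and 4 lower, beside 13.1% and 17.9% of all genes in ECs and 14.5% and 24.6% in stromal cells. The 2 higher in ECs were Adamts1, at 132 CPM (3 d) and 484 (78 w), and Timp3, at 502 and 1321. In stromal cells they were Adamts1, at 68.7 and 241 CPM, and Thbs1, at 23.6 and 47.2. Col18a1, the collagen whose cleavage yields endostatin, was at 367 CPM (3 d), 109.7 (3 w), 35.9 (16 w), 60.6 (78 w) and 279 (injured) in ECs. It was 6.05-fold lower (5.30 to 6.95) at 78 w than at 3 d, and in the injured disc 7.79-fold higher (6.26 to 9.71) than 16 w and 2.55-fold higher (2.17 to 2.97) than 3 w. Stromal Col18a1 was at 20.8 CPM (3 d), 6.01 (3 w), 4.32 (16 w), 6.83 (78 w) and 27.6 (injured), and was 6.40-fold higher (5.63 to 7.28) in the injured disc than at 16 w. Lect1 (chondromodulin), a cartilage protein that holds vessels off, was at 20.3 CPM (3 d), 4.89 (3 w), 0.460 (16 w), 0.220 (78 w) and 0.573 (injured) in stromal cells, where 78 w was 92.2-fold lower (59.5 to 151) than 3 d. Its relative Tnmd, which is also one of the stromal markers, was at 75.6 CPM (3 d), 115 (3 w), 9.02 (16 w), 20.6 (78 w) and 82.3 (injured). Both were thus lowest in the adult or aged disc. Tnmd leads a stromal cluster with Coch, and the part of the makeup of the class in its level was not tested. Thbs1, a secreted matrix inhibitor, was at 23.6 CPM (3 d), 57.1 (3 w), 226 (16 w), 47.2 (78 w) and 23.7 (injured). Against 16 w the injured stromal cells had 2 of 7 higher and 3 lower, beside 8.07% and 15.8% of all genes, and against 3 w 1 of 8 higher and 2 lower, beside 7.27% and 18.2%. Lect1 and Tnmd were also among the 4 called lower in ECs at 78 w. Their EC levels at 3 d were 4.89 and 12.8 CPM, and 0.620 and 3.72 without mixed subclusters.

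The 6 class 3 semaphorins, ligands that bind neuropilins, were split in stromal cells, with 3 of 6 higher and 3 lower at 78 w than at 3 d, beside 14.5% and 24.6% of all genes. Sema3d was at 40.0 CPM (3 d), 122 (3 w), 281 (16 w), 278 (78 w) and 162 (injured). Sema3e, which signals through Plxnd1, was at 19.98 CPM (3 d), 102 (3 w), 146 (16 w), 123 (78 w) and 84.5 (injured). Both were lowest at 3 d. Sema3a, a ligand of Nrp1, was highest there, at 14.5 CPM (3 d), 8.90 (3 w), 7.53 (16 w), 3.70 (78 w) and 5.44 (injured). Sema3c, at 263 CPM (3 d), 83.8 (3 w), 138 (16 w), 122 (78 w) and 125 (injured), was also highest at 3 d. The injured disc was called for 0 of the 6 in stromal cells against 16 w, beside 8.07% and 15.8% of all genes in each direction. In ECs the list had 2 of 5 higher and 1 lower at 78 w than at 3 d (13.1% and 17.9% of all genes). Sema3d was at 15.1 CPM (3 d) and 54.4 (78 w), Sema3e at 5.70 and 22.96, and Sema3c, the lower one, at 60.4 and 27.3. Without mixed subclusters these levels were 7.02 and 11.99, 1.03 and 2.82, and 11.2 and 3.88 CPM, in the same order. Against 16 w the injured ECs had 0 of 4 higher and 1 lower (3.28% and 24.6%). This was Sema3e, at 30.3 CPM (16 w) and 12.4 (injured), and 1.98 and 1.73 without mixed subclusters.

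Vegfa is a known target of the hypoxia response. Of the 12 hypoxia-responsive genes 8 were called higher and 0 lower in stromal cells at 78 w against 3 d, beside 14.5% and 24.6% of all genes, with a median log2 ratio of 1.38 beside -0.22 for all genes. In MCs they had 8 of 11 higher and 0 lower (15.1% and 20.8% of all genes), and in ECs 5 of 12 higher and 0 lower (13.1% and 17.9%). Ndrg1 was at 36.1 CPM (3 d), 189 (3 w), 273 (16 w), 268 (78 w) and 93.1 (injured) in stromal cells. Slc2a1, a glucose carrier, was at 13.6 CPM (3 d), 38.6 (3 w), 63.6 (16 w), 55.5 (78 w) and 26.3 (injured). From 3 d to 3 w, 4 of the 12 were called higher in stromal cells, Ndrg1 and Slc2a1 among them, and 0 lower. Of all genes, 16.6% were called higher and 22.6% lower there. In the injured disc stromal cells had 1 of 12 higher and 4 lower than 16 w, beside 8.07% and 15.8% of all genes, and 1 of 12 higher and 1 lower than 3 w, beside 7.27% and 18.2%. Their part in the Vegfa levels was not tested.

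The genes whose log2 CPM over the 20 sums went most closely with each member are given as a description. The sums share libraries, and most of their spread is between classes. Kdr went with Cdh5 (0.99), Icam2 (0.99) and Egfl7 (0.99), Tek with Sox18 (0.99), C1qtnf9 (0.99) and Ccm2l (0.98) and Tie1 with Emcn (0.99), Sox18 (0.99) and Egfl7 (0.98) (Pearson's r over 20 sums). Flt1 went with Adgrf5 (0.98), Sdpr (0.98) and Hecw2 (0.97), Nrp1 with Plxnd1 (0.95), Pitpnc1 (0.94) and Entpd1 (0.94) and Vegfc with Gm12002 (0.96), Clec1a (0.96) and Triobp (0.96). For the other VEGF ligands the closest were Nr4a2 (0.90), Lix1l (0.90) and Fstl3 (0.89) for Vegfa, and Letmd1 (0.85), Adamtsl5 (0.84) and Fam168b (0.84) for Vegfb. Angpt1 went with Pnck (0.94), Cited4 (0.92) and Wnk2 (0.91), and Angpt2 with Gucy1b3 (0.94), Ptp4a3 (0.93) and Csrp1 (0.93). Cdh5, Icam2, Egfl7, Emcn and Sox18 are well-known endothelial genes, and Nr4a2, nearest to Vegfa, is an early gene.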

How the data were processed

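Whole TMJ discs were profiled by droplet-based single-cell RNA sequencing, 1 library per condition. The authors deposited filtered matrices of UMI counts per gene and cell; the submitters' processing notes name mm10 and Cell Ranger 3.1, and the file headers name version 4.0.0. The counts are raw, with no normalization. The cell filter asked for over 200 UMIs with no more than 30% of them mitochondrial and left 51688 of 51948 barcodes.

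Clustering used Seurat 5.3.0 (R 4.3.3) with CCA integration of the 5 libraries, 2000 variable genes less the 10 genes and the pathway genes, 30 dimensions and a resolution of 0.2, which gave 10 clusters. Classes were named by fixed markers, and clusters with few UMIs or of synovial lining, erythroid or muscle and Schwann genes were left out of the 4 classes. Endothelial and mural cells were clustered again at a resolution of 0.3. Scrublet (scanpy 1.11.5) called at most 2 doublets per library and so did not work here. No doublets were removed, and removing the cells with the highest 6% of scores was an alternative.

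Counts were summed per class and library and expressed as CPM, with exact Poisson intervals, exact conditional binomial intervals for ratios and Clopper-Pearson intervals for shares, all at 95%. A count of 0 was set by convention to a floor of 3 counts where a ratio was read. Since each condition is 1 library, edgeR 4.0.16 served for TMM factors only and no test was run. Depth was 31585993 UMIs in the injured library and 88977781 to 125386677 in the others. The ratio and its counting interval were checked on simulated Poisson counts. Clustering, the naming of classes and differences between libraries were not simulated. The 10 genes, the lists and the rule for named genes (all 10 genes, up to 4 genes per list, class and comparison by fold, and 3 genes most like each) were chosen with earlier results of these data known. Alternatives are given in the closing section.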

Additional observations from a re-analysis of the deposited data

Results flagged for a closer look

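Vegfb was highest outside the 4 classes in 1 library. In a cluster of 1431 cells at 3 d, with the muscle genes Actc1 and Myog among its leading genes and used in no comparison, Vegfb stood at 41.3 CPM (95% counting interval 33.9 to 49.9, from 109 UMIs). The highest level of the 4 classes at 3 d was 32.4 CPM, in mural cells. It was picked out because the signal lies in cells that the comparisons leave out.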

How the results depend on the processing

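The 6 genes highest in ECs, the 4 with most UMIs in ECs and the 3 with most UMIs in stromal cells stayed at these counts under the alternatives run on them, 9 for the first and 6 for each of the others. The 6 pairs called higher at 78 w than at 3 d were 3 with equal weight for every cell, where Vegfa in ECs (1.77), Vegfa in macrophages (1.14) and Angpt1 in MCs (1.77) were below 2-fold. Vegfa in ECs was also below it without integration (1.76), with the highest doublet scores removed (1.64) and with mixed subclusters left out (1.79), and Vegfa in macrophages with the highest doublet scores (1.41) or shared barcodes (1.98) removed. The 5 lower pairs were 4 to 6: stromal Nrp1 was at 0.902 with equal weight for the stromal clusters, and Kdr in macrophages at 0.821 with the highest doublet scores removed and 0.532 with TMM scaling. In the injured disc the 2 pairs higher than at both ages were 1 with equal weight for the stromal clusters. The 1 lower pair was 0 without integration, at a resolution of 0.5, with the highest doublet scores removed and with equal weight for every cell. Flt1 in macrophages, injured against 16 w, turned from 0.153 to 1.76 with the highest doublet scores removed, and Tek in ECs was at 0.551 with TMM scaling in place of 0.457. Against 3 w, stromal Vegfa (1.90), Vegfc (1.58) and Kdr (1.08) were below 2-fold with equal weight for the stromal clusters. The share of all genes past the fold in ECs at 78 w against 3 d was 31.0%, 28.2% with at least 100 UMIs and 52.5% at 1.5-fold. The cause of these shifts was not tested. Of 83 ratios, TMM scaling moved 18 beyond their counting interval, equal weight for every cell 19 and clusters without integration 7, and removing high doublet scores moved 5 and reversed 1. Equal weight for the stromal clusters moved 17 of the 28 stromal ratios and leaving out mixed subclusters 2 of 43, while the stricter cell filter, a resolution of 0.5 and leaving out shared barcodes moved 0. The TMM factors of ECs were 1.21 at 3 d and 1.06 at 78 w, and of stromal cells 1.03 and 0.895, which raises each ratio of these ages relative to CPM. The removal of high doublet scores, of mixed subclusters and of shared barcodes were chosen after seeing the data.

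With 1 library per condition, leaving out a replicate was not possible, and no spread between animals is known. No paired analysis was possible because each condition has 1 library. The injured library has a median of 3299 UMIs per cell, against at least 7721 in the others, so its counts limit the mural and macrophage values most: 110 MCs gave 0 Angpt1 and 7 Angpt2 UMIs.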
